A study of Schizosaccharomyces pombe with 8 samples.

Results

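The 743 stretches described here are the parts of the fission yeast (Schizosaccharomyces pombe) genome with the highest trimethylation of lysine 4 of histone H3 (H3K4Me3) in cells at the start of premeiotic S phase. Nuclear probes were put in order along each chromosome, the log2 ratio of ChIP over input signal was centred on each array's median, and running means over 5 neighbouring probes gave 37227 windows. The 1861 windows in the highest 5% of the mean over the 4 H3K4Me3 arrays were taken and merged where they overlapped. All levels below are such 5-probe means of log2 ChIP over input, so that 0 is the array's median and 1 unit is a doubling of the ratio, and the level of a stretch is that of its highest window. The H3K4Me3 levels chose the stretches and are given as a description, whereas total H3, measured on 4 other arrays, took no part in the choice.

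The study asked what a changed choice of replication origins does to meiosis. It used the nitrogen supply to change that choice, and these arrays measured chromatin features linked to recombination under both conditions. All cells were pat1-114 diploids (strain PN2159), in which the temperature-sensitive Pat1 kinase, the inhibitor of meiosis, is inactivated by a shift to 34 °C. The groups were H3K4Me3 +N, H3K4Me3 −N, H3 +N and H3 −N, with 2 arrays each. The +N cells were kept in nitrogen-rich medium with the mating pheromone M-factor, which was removed before the shift, and were sampled 30 min after it, and the −N cells were starved of nitrogen, given nitrogen again at the shift and sampled 2 h after it, so that nitrogen, pheromone and time cannot be told apart. Each array set ChIP DNA (red) against input DNA (green) of the same chromatin. Replicate 1 of every group lay on one slide and replicate 2 on another. A legend of the study calls replicates of these marks biological, while the labels do not say that the 2 arrays of a group came from separate cultures, so p-values measure only the spread between these arrays.

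H3K4Me3 is written by the Set1 complex, which travels with RNA polymerase II early in transcription, and in yeasts the mark forms a peak over the first nucleosomes of transcribed genes. The promoter just upstream of such a gene is usually depleted of nucleosomes, and a ChIP signal for a histone mark depends both on how many nucleosomes lie there and on how many of them carry the mark, which is why total H3 is given beside it. In fission yeast many genes lie back to back, with their 5′ ends facing away from a common upstream region, and such pairs are called divergent here.

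The upstream sequences of 8 genes are shown, 5′ to 3′ on the strand of the gene and ending at the base before its annotated 5′ end, in the coordinates of the RefSeq assembly ASM294v3. They stand for some of the 8 highest stretches (sts5, ags1, mrd1), the longest stretch without a probe gap (rps1402, rps1601) and the stretches that differed most between −N and +N or hold a histone gene pair (fhn1, SPCC1739.01, hht2). Sequences of esc1, rpl14 and SPBC29A3.21, also among the 8 highest, were left out. The reasons were a close or overlapping neighbouring gene or no annotated bases before the start codon. Capitals mark letters found by a search of both strands for short motifs named below, other than runs of A, which are left in lower case (a run of T in sts5 and in ags1), and a match on the other strand stands as its reverse complement. They are the TATA box TATAAA in sts5 and fhn1, the core CTTTGTT of the box bound by the meiotic regulator Ste11 in sts5, CCAAT in ags1, and the core AGTCACA of the HomolD box, known from fission yeast ribosomal protein promoters, in rps1402 and rps1601. No motif of the search was found in the windows of mrd1, SPCC1739.01 and hht2.
sts5, chrIII:679635-679834, plus strand: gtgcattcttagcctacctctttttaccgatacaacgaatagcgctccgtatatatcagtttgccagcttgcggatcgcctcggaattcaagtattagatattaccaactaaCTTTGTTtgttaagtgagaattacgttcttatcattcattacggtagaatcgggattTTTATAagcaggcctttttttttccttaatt
ags1, chrIII:1372897-1373096, plus strand: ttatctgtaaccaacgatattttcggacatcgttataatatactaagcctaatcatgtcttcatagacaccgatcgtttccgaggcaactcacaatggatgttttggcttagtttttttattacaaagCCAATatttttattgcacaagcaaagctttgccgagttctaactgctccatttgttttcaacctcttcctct
mrd1, chrII:1435971-1436170, minus strand: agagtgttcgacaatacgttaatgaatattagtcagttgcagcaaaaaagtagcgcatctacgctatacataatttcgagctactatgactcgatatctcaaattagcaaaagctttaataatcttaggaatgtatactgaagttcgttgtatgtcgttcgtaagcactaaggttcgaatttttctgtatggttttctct
rps1402, chrII:1792296-1792362, plus strand, the whole gap between it and the divergent rpl701: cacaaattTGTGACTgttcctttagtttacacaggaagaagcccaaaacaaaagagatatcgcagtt
rps1601, chrII:1793737-1793936, plus strand: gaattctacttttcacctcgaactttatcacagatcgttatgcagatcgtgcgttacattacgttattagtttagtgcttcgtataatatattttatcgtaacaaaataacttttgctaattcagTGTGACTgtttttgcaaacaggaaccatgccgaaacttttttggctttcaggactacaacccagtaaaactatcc
fhn1, chrII:525314-525513, plus strand: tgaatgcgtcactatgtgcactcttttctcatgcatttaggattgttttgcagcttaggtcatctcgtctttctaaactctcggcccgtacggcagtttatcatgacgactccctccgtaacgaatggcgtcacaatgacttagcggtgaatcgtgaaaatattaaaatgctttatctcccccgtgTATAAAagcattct
SPCC1739.01, chrIII:2024240-2024439, plus strand: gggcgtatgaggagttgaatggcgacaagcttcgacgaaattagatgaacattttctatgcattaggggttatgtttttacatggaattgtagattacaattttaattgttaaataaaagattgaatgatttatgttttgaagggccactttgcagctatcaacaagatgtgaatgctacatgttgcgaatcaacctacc
hht2, chrII:1364985-1365118, plus strand, the whole gap between it and the divergent hhf2: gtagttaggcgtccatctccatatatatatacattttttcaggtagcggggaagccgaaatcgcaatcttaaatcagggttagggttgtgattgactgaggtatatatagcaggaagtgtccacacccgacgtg

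The stretches had H3K4Me3 levels of 2.23 to 4.14 at their highest window, with a median of 2.54, against a median of 0.37 over all windows. The lowest levels inside the limit were 2.2282 at tef3, the gene of translation elongation factor 3, and 2.2285 at chrI:4862910-4864395. Just outside it lay a window at rps2201, a ribosomal protein gene, with 2.2279 and one at coa5 with 2.2278. The 5′ end of rps2201 was still in a stretch, through another window with a level of 2.60. Averaged over the 1861 windows, the level was 2.45 and 2.87 on the +N arrays and 2.34 and 2.59 on the −N arrays, and for the other windows it was 0.12 and 0.23 on the +N arrays and 0.12 and 0.22 on the −N arrays. The 2 slides thus differed at least as much as the 2 conditions. Single arrays placed most stretches in their own highest 5%, with 620 and 644 of the 743 on the +N arrays and 605 and 609 on the −N arrays. The mean of these 4 arrays chose the stretches, so this follows largely from the choice. On the H3 arrays 22 and 27 stretches of +N and 13 and 35 of −N had a window in the highest 5% of H3.

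Most ChIP spots in the high windows were bright, which follows largely from the choice, since the ChIP signal is part of the ratio that chose them. On the H3K4Me3 arrays 82.4% and 98.7% of the ChIP spots in these windows were well above background in +N and 90.7% and 99.2% in −N, against 38.2% and 90.0% in +N and 51.2% and 94.7% in −N for the other windows. The lowest of the 5 probes in the highest window had a median of 1.38, and in 540 stretches every probe lay above 1. In 19 stretches 1 probe or more lay below 0, so that the mean hid an unmarked spot. A saturated ChIP spot occurred in the highest window of 77 stretches, and in 12 of these at least 5 of the 20 measurements were saturated, which makes the level a lower bound. GC content was 35.9% in the high windows and 36.2% in the others, and none held a probe with more than 1 match in the genome.

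The highest level was found at sts5, the gene of an RNA-binding protein of cytoplasmic granules that acts in cell polarity (chrIII:678209-681119). Its highest window had 4.58 and 4.36 on the +N arrays and 3.43 and 4.21 on the −N arrays. H3 there was 0.11 and 0.32 in +N, against 0.03 and 0.49 in −N. All 4 arrays showed the high H3K4Me3, and H3 was above the array median on all 4 H3 arrays, as a lower bound, since 6 of 20 H3 measurements were saturated. At ags1, which encodes the α-glucan synthase of the cell wall (chrIII:1372073-1374416), H3K4Me3 was 4.44 and 4.12 in +N, against 3.64 and 4.19 in −N. At esc1, the gene of a helix-loop-helix transcription factor (chrI:1152616-1155219), it was 4.67 and 3.87 in +N, against 3.50 and 4.28 in −N. These last stretches had H3 above the array median on all 4 H3 arrays, with 0.37 and 0.28 in +N, against 0.27 and 0.73 in −N at ags1, and 0.77 and 0.72 in +N, against 0.28 and 0.86 in −N at esc1. Saturation was common at these 3 genes, with 8, 12 and 15 of 20 H3K4Me3 ChIP measurements at sts5, ags1 and esc1, so their order among themselves is not settled.

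The next stretches were measured with less saturation. The stretch at rpl14, a gene of the large ribosomal subunit (chrI:2793679-2797065), also held the 5′ ends of ubi2, which encodes ubiquitin fused to a ribosomal protein, and of SPAC1805.14, and had 3.75 and 4.25 in +N, against 3.59 and 3.85 in −N. At mrd1, whose product acts in ribosomal RNA processing (chrII:1434817-1437194), the values were 4.03 and 3.99 in +N, against 3.47 and 3.33 in −N, so that both +N arrays were above both −N arrays. The stretch shared by SPBC29A3.21 and ccc2, a copper-transporting ATPase (chrII:2036076-2038469), had 3.95 and 3.42 in +N, against 3.96 and 3.47 in −N. The remaining 2 of the 8 highest lie on the right arm of chromosome I, at chrI:5004555-5006802 with a mean of 3.79 and at chrI:5060605-5062829 with 3.65, where the probe coordinates could not be matched to the reference and no gene is named.

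**Figure D1:**
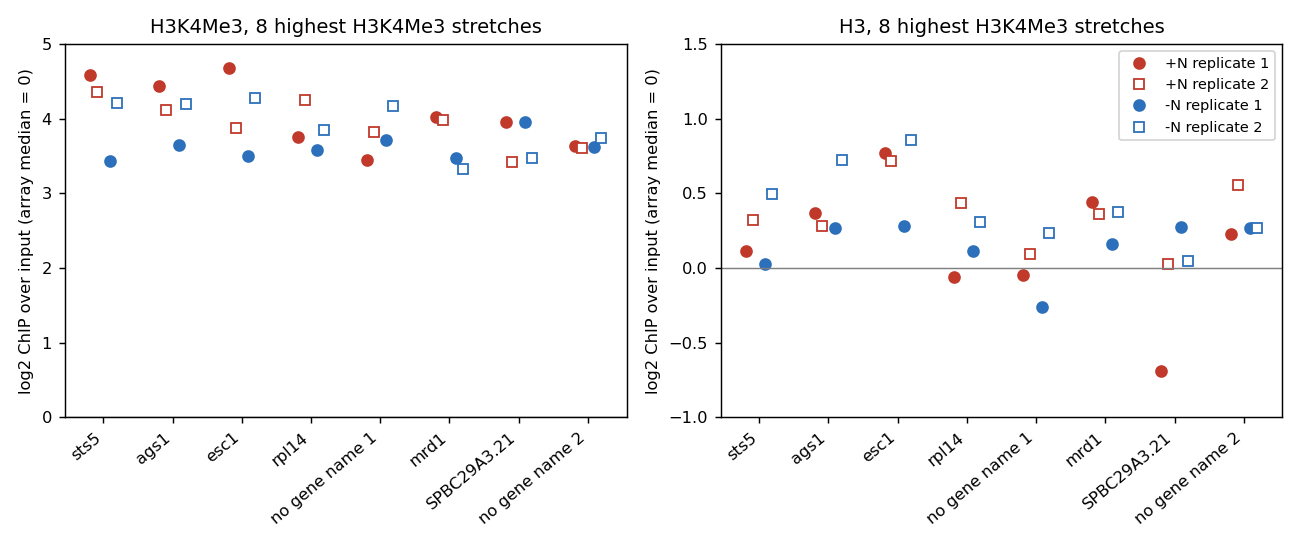
H3K4Me3 (left) and H3 (right) at the highest window of the 8 highest stretches, as mean log2 ChIP over input relative to the array's median, 1 point for each array. H3K4Me3 ran from 3.33 to 4.67 at these windows, while H3 stayed between -0.69 and 0.86.

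The first 3 of these genes have a long distance between their annotated 5′ end and their start codon. It was 527 bp at sts5, 1075 bp at ags1 and 1153 bp at esc1, and 1496 bp at scr1, the gene of a glucose repressor, whose H3 is described below. It was 57 bp at mrd1 and 37 bp at rpl14. At esc1 and scr1 a noncoding gene begins nearer to the centre of the highest window than the named gene. Its 5′ end lay 95 bp away at esc1 and 47 bp away at scr1, against 444 and 749 bp for the named genes. Long leaders were not a property of the stretches as a whole. The median distance was 94 bp for 1040 protein-coding genes with a 5′ end in a stretch and 97 bp for 2791 other genes. A distance over 500 bp was found for 5.77% and 7.02% of them. Genes with no annotated bases before the start codon were left out.

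The stretches were short, and their length depended on the window. Their median length was 1684 bp, the quartiles were 1370 and 2078 bp, and the extremes were 813 and 6491 bp. A single window made up 205 stretches, 69 were made of 5 windows or more, and 34 were longer than 3 kb. Since a window of 5 probes spans about 1 kb by itself, lengths near the lower end are those of the window and not of the marked region. The median length was 60 bp for single probes and 3436 bp with 9-probe windows, so none of these lengths measures the marked region itself. Together the stretches covered 1336 kb, or 10.74% of the 12438 kb between the outermost probes.

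**Figure D2:**
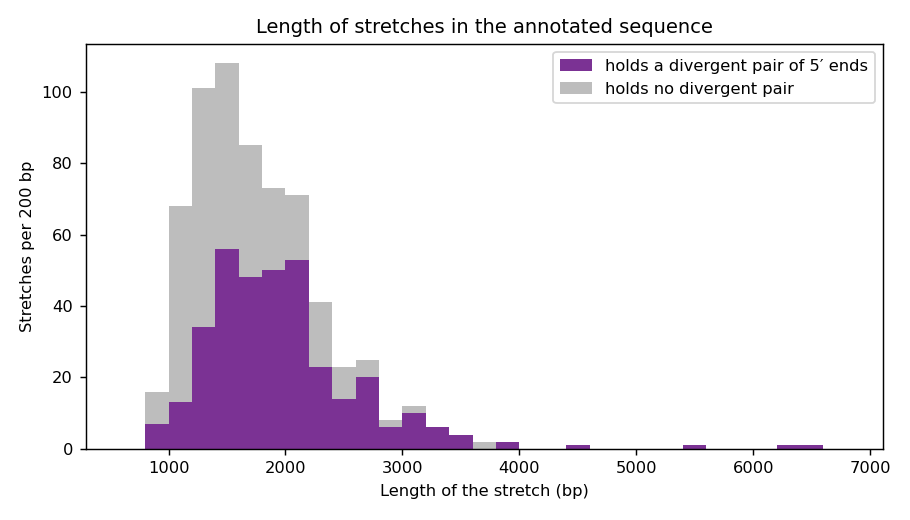
Number of stretches by length (bp), for the 649 stretches on the part of the genome where genes could be assigned, split into 350 that hold a divergent pair of protein-coding 5′ ends and 299 that do not. The stretches with a pair lie further to the right, with a median of 1849 bp against 1383 bp for those with a single protein-coding 5′ end.

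The longest stretches fell into 2 kinds. The 2 longest, 6491 bp at Tf2-2 (chrI:1562892-1569382) and 6206 bp at fml1, brr2 and Tf2-1 (chrI:1465023-1471228), each held 1 window whose probes lay on both sides of a gap at a Tf2 retrotransposon, so their length is that of the gap. The longest one that probes covered throughout, 5476 bp and 10 windows on chromosome II (chrII:1790302-1795777), held 5 protein-coding 5′ ends, those of ppr2, rpl701, rps1402, rps1601 and cdk11, of which 3 encode ribosomal proteins. Its highest window, at rps1402, had 3.28 and 3.38 in +N, against 2.98 and 3.02 in −N, so that the +N arrays lay above the −N arrays. H3 was −0.37 and 0.00 in +N, against 0.14 and −0.28 in −N, with the groups overlapping. It was followed by chrI:5365212-5370035 with 4824 bp and by the stretch at ykt6, a SNARE gene (chrII:3748728-3753217), with 4490 bp, 7 windows and a mean level of 3.33.

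The stretches were spread over all chromosomes, with 319 on chromosome I, 279 on II and 145 on III, and 4.64%, 5.26% and 5.35% of the windows of these chromosomes were members. The median gap between neighbouring stretches was 9.25 kb and the longest gap, 100.9 kb, was on chromosome III between 1052467 and 1153320. Probes were fewer there, with 260 and 218 in the 100-kb segments from 1000000 and 1100000 bp, against 357 and 370 in the segments on either side. They were sparse near the chromosome ends, where 4 of the 696 windows within 50 kb of an outermost probe and 29 of the 1548 within 100 kb were members. The highest window nearest to an end lay 31.8 kb from it.

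Genes could be assigned to 649 stretches, those on chromosomes II and III and on the first 3700000 bp of chromosome I. Of these, 647 (99.7%) held the 5′ end of an annotated gene of any kind, and 639 (98.5%) that of a protein-coding gene. A single protein-coding 5′ end lay in 227 stretches, 2 lay in 347, 3 in 54, 4 in 10 and 5 in 1, and 10 had none. Since 5′ ends are dense in this genome, the same was counted for single windows. A protein-coding 5′ end lay in 92.7% of the 1638 member windows, against 46.3% of the 30137 other windows there, and a 5′ end of any gene lay in 96.6% of members and 76.5% of the others. The highest window was centred 30 bp downstream of the nearest protein-coding 5′ end in the median, with quartiles of −152 and 203 bp, and 89.5% of the centres were within 500 bp. The stretch at tef3 was among the exceptions, with the centre 780 bp inside the gene.

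Divergent gene pairs were the most frequent setting. Both 5′ ends of a divergent pair lay in 350 of the 649 stretches (53.9%), and 40.3% of the member windows held such a pair, against 5.02% of the other windows. Put the other way, 30.4% of the 2172 windows with such a pair were members, against 6.45% of windows with a protein-coding 5′ end but no pair and 0.736% of windows without one. A window over a pair can hold the marked 5′ ends of both genes, and the running mean was not corrected for this. Stretches with a pair had a median level of 2.62, against 2.44 for those with a single protein-coding 5′ end.

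Of the 4346 protein-coding genes on the annotated part, 1128 (26.0%) had their 5′ end in a stretch. The share was 34.0% for the 2370 genes whose upstream neighbour is divergent (805 genes) and 16.4% for the 1975 genes that lie in tandem behind their neighbour (323 genes). Among divergent genes that do not overlap it fell with the distance between the 5′ ends, being 61.6% of 510 genes at 0 to 300 bp, 49.4% of 312 at 300 to 600 bp, 31.9% of 492 at 600 to 1000 bp and 14.0% of 828 at 1000 bp or more. A gene counted when a stretch covered its 5′ end, so a close divergent gene can be counted through its neighbour's mark. None of these shares was corrected for this. Of the 228 divergent genes that overlap their neighbour, 64 (28.1%) were in a stretch. The median gene length was 1770 bp for genes in a stretch and 1777 bp for the others, while 18.9% and 15.2% of them were under 1 kb. More than 1 exon was found in 51.2% and 47.9%. These differences were not tested.

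The probe values around these 5′ ends show how far the mark reached. In the genes of the stretches H3K4Me3 reached its peak in the 100-bp bin centred 150 bp inside divergent genes (3.205) and 250 bp inside tandem genes (3.33), and in other genes the peak was 150 bp inside, with 2.29 for divergent and 2.49 for tandem genes. Upstream the classes differed more. At 550 bp before the 5′ end the level was 2.34 at divergent genes in a stretch, where the neighbouring gene begins, and 1.40 at tandem genes in a stretch, against 0.40 and −0.13 at divergent and tandem genes outside the stretches. These H3K4Me3 values chose the stretches, as means over about 1 kb, so a higher and broader peak there follows from the choice. H3 was lowest just upstream of the 5′ end in all 4 classes, with −0.85 and −0.91 at divergent and tandem genes in a stretch and −1.08 and −0.94 at divergent and tandem genes outside them.

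**Figure D3:**
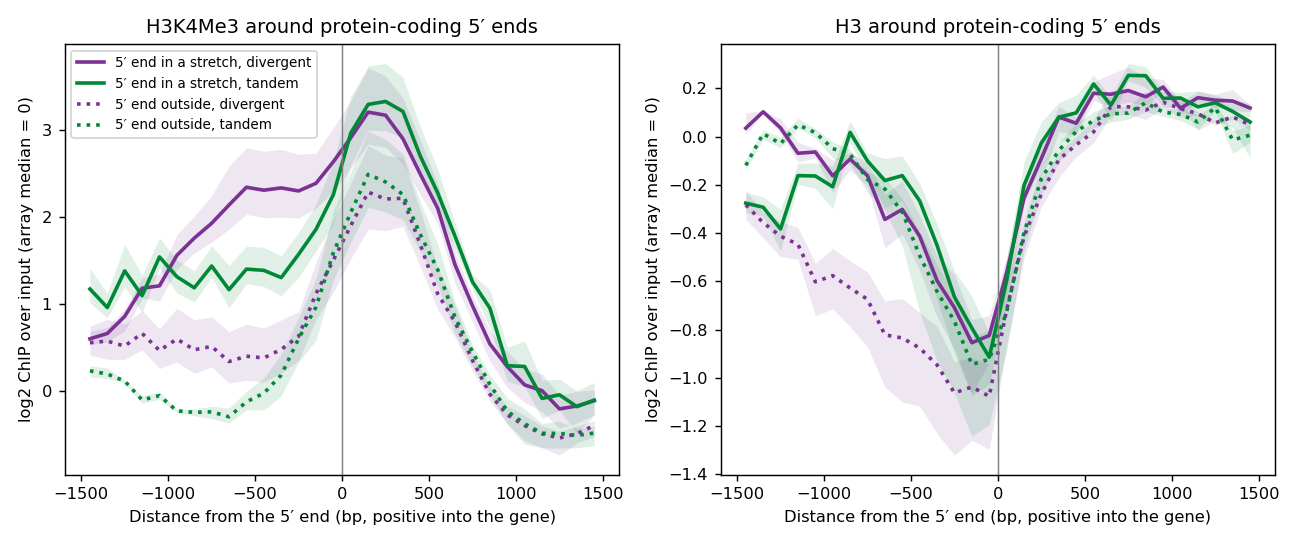
Mean H3K4Me3 (left) and H3 (right) of probes, as log2 ChIP over input relative to the array's median, by distance from protein-coding 5′ ends (bp, 100-bp bins, negative upstream), for divergent and tandem genes with the 5′ end inside or outside a stretch. Lines are means over the 4 arrays and bands run from the lowest to the highest array; genes in a stretch peak at 3.205 and 3.33, the others at 2.29 and 2.49.

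Ribosomal protein genes were often in a stretch. Of the 119 on the annotated part, 70 (58.8%) had a 5′ end in one, beside 26.0% of all protein-coding genes. The highest window within 500 bp of their 5′ ends ran from −0.08 to 3.86 with a median of 2.26, and over 4305 protein-coding genes the level ran from −2.20 to 4.14 with a median of 1.66. After rpl14, the highest were rpp101, which encodes an acidic ribosomal protein, with 3.50 and 3.89 in +N, against 3.49 and 3.59 in −N, and rpl35 with 3.71 and 4.12 in +N, against 3.34 and 3.17 in −N. At rpl35 the +N arrays lay above the −N arrays, and at rpp101 the groups overlapped. The HomolD core was found within 200 bp upstream of 63.9% of the ribosomal protein genes and in 45 of the 70 that were in a stretch.

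The core histone genes were next, with 4 of 7 in a stretch (57.1%), beside 26.0% of all protein-coding genes. These 4 form 2 divergent pairs, hta1 with htb1 for H2A and H2B and hht2 with hhf2 for H3 and H4. The first pair had H3K4Me3 of 3.26 and 2.98 in +N, against 2.71 and 2.81 in −N, and the second, whose whole upstream gap is printed above, had 2.57 and 2.96 in +N, against 3.12 and 3.50 in −N. H3 at hta1 and htb1 was 0.44 and 0.15 in +N, against −0.31 and 0.12 in −N. The arrays of the 2 conditions did not overlap for H3K4Me3 at either pair, and neither difference passed limma's test (adjusted p = 0.978 at hta1 and htb1 and 0.974 at hht2 and hhf2). Of 13 genes for meiotic recombination 5 were in a stretch (38.5%, beside the same 26.0%). These were rec7, rec15 and rec27, which act with the break-forming protein Rec12, rec11, which encodes a meiotic cohesin subunit, and meu13, the fission yeast Hop2. Of 13 genes of the pheromone response 2 were in a stretch (15.4%), the MAP kinase gene spk1 and the protease gene sxa1. Of 6 elongation factor genes, tef5 was in a stretch (16.7%). Of 8 genes listed for the Set1 complex sdc1 was in one (12.5%), but spp1, counted among the 8, is annotated as a DNA primase subunit and does not belong there. These lists are short, and their shares were not tested against the 26.0% of all protein-coding genes.

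For some groups no gene with a 5′ end in a stretch was found, beside 26.0% of all protein-coding genes. These were the glycolytic genes (0 of 11 that could be placed, of 13 listed), the nitrogen starvation genes (0 of 7, of 12 listed) and the heat shock genes (0 of 11, of 14 listed). The glycolytic genes had levels of −1.58 to 1.85 with a median of 0.78, and their median H3 was −0.79, against −0.33 over all protein-coding genes. The nitrogen starvation genes had a median of 0.76 and the heat shock genes one of 1.29, and the highest of each, 1.52 and 1.76, stayed below the limit. Among genes without a protein, 2 of 151 tRNA genes (1.32%), 10 of 57 snoRNA genes, 0 of 6 snRNA genes and 641 of 6053 annotated long noncoding RNAs (10.6%) had a 5′ end in a stretch. In 173 stretches the 5′ end nearest to the highest window was that of a noncoding gene.

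The 200 bp upstream of the 1128 genes in a stretch and of all 4346 genes were searched for 8 motifs, and no test was made. The HomolD core AGTCACA was found in 6.47% of the genes in a stretch, in 3.26% of the 3218 genes outside and in 4.10% of all genes. Of the 73 genes in a stretch that had it, 45 were ribosomal protein genes. The MluI box ACGCGT was found in 3.63% of the genes in a stretch, in 2.02% of those outside and in 2.44% of all genes. For the other motifs the shares are of genes in a stretch and of all genes. TATAAA was found in 33.3% and 37.1%, CCAAT in 28.4% and 28.95%, the run AAAAAAA in 25.9% and 27.2%, the forkhead core GTAAACA in 15.4% and 13.1%, the Ste11 core CTTTGTT in 6.47% and 7.09%, and TGACGT, the core of the site of the stress factor Atf1, in 4.79% and 4.69%. A match is a run of letters on either strand and not a bound site. The common upstream gaps of divergent pairs count once for each gene in these shares.

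Total H3 was close to the typical level in the stretches and less spread out than elsewhere. Averaged over the member windows it was −0.27 and −0.16 on the +N arrays and −0.25 and −0.17 on the −N arrays, and over the other windows −0.19 and −0.13 in +N, against −0.13 and −0.13 in −N. The members were lower on all 4 arrays, with a mean difference of −0.07 ± 0.04 (SD, n = 4; exact two-sided sign-flip permutation test, p = 0.125, the smallest p that 4 arrays allow). The difference turned positive, to 0.12, without the probes that were dim on any array, and to 0.21 when single probes were ranked. From the 5th to the 95th percentile H3 ran from −0.75 to 0.30 in members and from −1.09 to 0.49 in the other windows. H3 was below −1 in 13 members (0.699%) and in 6.27% of the others, and above 0.5 in 33 members (1.77%) and in 4.79% of the others.

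By limma across all windows, H3 was above the array median in 130 of the 1861 members (6.99%), against 23.8% of all windows, and below it in 878 (47.2%), against 36.8% of all windows, at an adjusted p under 0.05. Many windows of the genome hold no protein-coding 5′ end, so the comparison was repeated among windows with a protein-coding 5′ end. There the order was the reverse. At divergent pairs, H3 averaged −0.25 in members and −0.39 in the other windows, a difference of 0.14 ± 0.03 (SD over 4 arrays), with 0.18 and 0.14 on the +N arrays and 0.12 and 0.13 on the −N arrays. At windows with a protein-coding 5′ end and no pair, H3 averaged −0.22 in members and −0.35 in the others, a difference of 0.13 ± 0.03, with 0.16 and 0.13 on the +N arrays and 0.10 and 0.14 on the −N arrays. The members were higher on 4 of 4 arrays in both classes (exact two-sided sign-flip permutation test, p = 0.125 for each, the smallest possible, and 0.125 after Benjamini-Hochberg adjustment over the 2). With 9-probe windows the differences were 0.04 at pairs and 0.02 at other 5′ ends, and for single probes at other 5′ ends 0.68. Windows without a protein-coding 5′ end averaged 0.03.

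**Figure D4:**
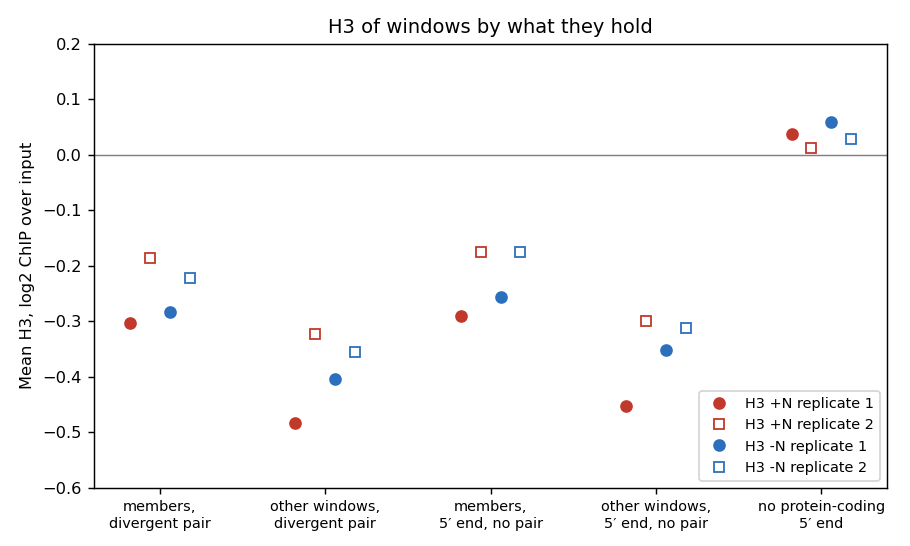
Mean H3 (log2 ChIP over input relative to the array's median) on each of the 4 H3 arrays, for member and other windows with a divergent pair, for member and other windows with a protein-coding 5′ end but no pair, and for all windows without one. In the first 2 classes the members lie above the other windows on each array, by 0.12 to 0.18 and by 0.10 to 0.16.

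Single stretches departed far from that average. The highest H3 was found at scr1 (chrII:1751578-1753594), with 1.28 and 0.73 in +N, against 0.46 and 1.23 in −N and a mean of 0.93 (adjusted p = 0.000147 against the array median, limma), and its H3K4Me3 was 3.16 and 2.74 in +N, against 2.72 and 3.53 in −N. Saturated spots were common there, with 13 of 20 measurements for H3K4Me3 and 7 of 20 for H3. The others of the 5 highest were mtl3 (0.69), tif52 (0.68), esc1 (0.66) and pus3 (0.61), a tRNA pseudouridine synthase gene. Their order is not settled, since 8 of 20 H3 measurements at esc1 and 3 of 20 at pus3 were saturated. At tif52, where 12 of 20 were above background, the H3 arrays read 1.71 and 0.18 in +N, against 0.81 and 0.01 in −N. At the other end, cid13, which encodes a cytoplasmic poly(A) polymerase, had H3 of −1.41 and −1.38 in +N, against −1.32 and −0.97 in −N and a mean of −1.27 (adjusted p = 1.27e-06). It was followed by asn1, the asparagine synthetase gene (−1.09), the AAA-ATPase gene cdc48 (−1.07), chrI:4469348-4472094 (−1.06) and mgm101, which acts in mitochondrial DNA maintenance (−1.05). These stretches reached the highest 5% of H3K4Me3 with a low H3 signal, and the H3 arrays of both conditions show it.

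Between +N and −N, most stretches were the same. The highest 5% of windows were chosen on the 2 +N arrays alone and on the 2 −N arrays alone, which have no array in common, and 1379 windows, 74.1% of either set, were in both. The same share between the 2 slides, each with 1 +N and 1 −N array, was 71.1%, so the sets differed between conditions no more than between slides. After merging, 612 of the 767 stretches chosen on +N (79.8%) overlapped one chosen on −N, and 617 of the 741 chosen on −N (83.3%) overlapped one chosen on +N. Of the windows chosen on +N, 94.7% were in the highest 10% of −N, and of those chosen on −N, 93.3% were in the highest 10% of +N. The windows chosen on +N had a mean of 2.68 there and of 2.41 on the −N arrays, and those chosen on −N had 2.49 there and 2.58 on the +N arrays, against 0.17 and 0.18 for the windows not chosen.

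Over the 1861 members the level averaged 2.66 ± 0.29 on the +N arrays and 2.47 ± 0.18 on the −N arrays (SD, n = 2 each), with a difference of 0.19 (exact two-sided permutation test, p = 0.667, where 2 arrays against 2 cannot go below 0.333). It was 0.11 within slide 1 and 0.27 within slide 2. The SD over all windows was 1.18 and 1.47 on the +N arrays, against 1.18 and 1.29 on the −N arrays. The difference was 0.01 with all arrays at a common SD, −0.06 after quantile normalization, −0.03 without dim probes, and 0.42 both with centring on the 10th percentile and with normexp and loess. For H3 the members averaged −0.21 ± 0.08 on the +N arrays and −0.21 ± 0.05 on the −N arrays (SD, n = 2 each), and the difference of −0.0027 was far below the spread between arrays (exact permutation test, p = 1.0).

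No member window passed limma's test between +N and −N for H3K4Me3, and none of the 37227 windows did (0.0% of all windows), while 27 members (1.45%) and 4.26% of all windows had an unadjusted p under 0.05. For H3 none passed either (0.0% of all windows), with 7 members (0.376%) and 2.24% of all windows at an unadjusted p under 0.05. With the slide, which is also the replicate number, as a block, 36 members (1.93%) passed for H3K4Me3, against 5.47% of all windows, 28 of them higher in +N (2.93% of all windows) and 8 lower (2.54% of all windows). They lay in 28 stretches and included the highest window of 12. For H3 none passed with the block, against 0.14% of all windows. A change of 1 or more in H3K4Me3 was found in 2 members (0.107%) and in 0.871% of the other windows.

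Both +N arrays lay above both −N arrays for H3K4Me3 in 541 members (29.1%), against 16.3% of all windows, and below them in 76 (4.08%), against 17.6% of all windows. The split changed with the scaling. After quantile normalization 284 members were higher (15.3%, against 17.4% of all windows) and 422 lower (22.7%, against 20.1%), and with all arrays brought to a common SD 350 were higher (18.8%, against 16.6%) and 289 lower (15.5%, against 19.9%). For H3, +N was higher in 258 members (13.9%, against 12.0% of all windows) and lower in 204, against 16.5% of all windows. The spread of the differences between conditions was of the size of that between replicates, with an SD over the members of 0.33 on slide 1 and 0.34 on slide 2, against 0.38 between the +N replicates and 0.32 between the −N replicates.

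**Figure D5:**
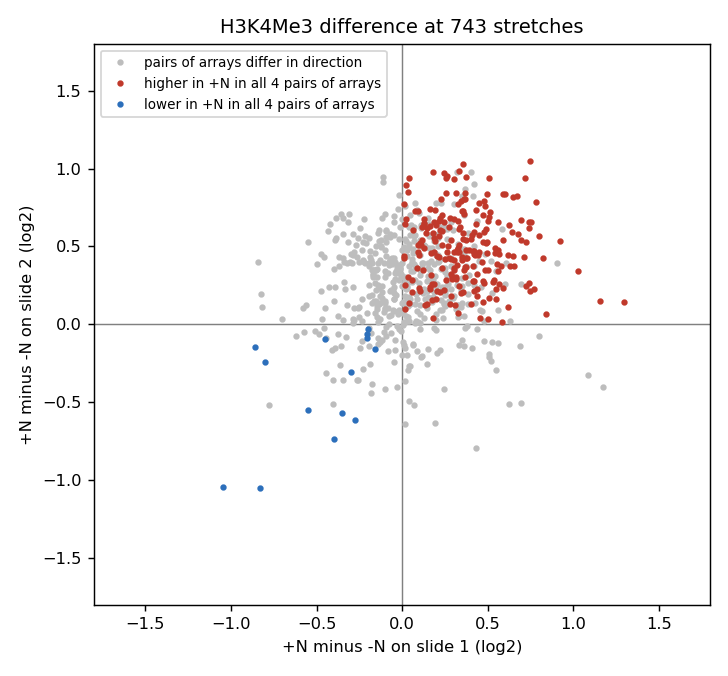
Difference in H3K4Me3 (log2 ChIP over input, +N minus −N) at the highest window of each of the 743 stretches, measured within slide 1 (x axis) and within slide 2 (y axis). Of the 743, 229 (30.8%) had both +N arrays above both −N arrays and 14 (1.88%) had both below. Over all windows the shares were 16.3% and 17.6%, and the split among members changed with the scaling of the arrays. The points of fhn1 and SPCC1739.01 lie furthest to the lower left.

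The largest differences without overlap of the arrays are given by name, and with limma's test across all windows each had an adjusted p of 0.974. The largest was a decrease in +N at fhn1, the gene of a plasma membrane protein of the eisosome (chrII:525544-527185, which begins just downstream of the sequence printed above). H3K4Me3 there was 1.84 and 2.28 in +N, against 2.89 and 3.32 in −N, a difference of −1.04 ± 0.33 (SE), nearly the same on both slides and with an adjusted p of 0.00147 with the slide as a block. H3 was also lower, with −1.61 and −0.95 in +N, against −0.89 and −0.65 in −N. The mean of the +N arrays at fhn1 was thus below the limit that chose the stretches, and that of the −N arrays was above it. At SPCC1739.01 (chrIII:2024023-2025711) H3K4Me3 was 2.56 and 2.78 in +N, against 3.38 and 3.83 in −N, a difference of −0.94 ± 0.32 (adjusted p = 0.00536 with the block), and the difference in H3 was −0.11 ± 0.18.

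The other decreases in +N were smaller, and none passed with the block. They were −0.57 at dys1 (adjusted p = 0.136), −0.55 at hht2 and hhf2 (chrII:1364137-1366235; adjusted p = 0.1504) and −0.52 at pfk1, the phosphofructokinase gene, whose 5′ end is the nearest of a protein-coding gene although the window is centred at −1445 bp from it (adjusted p = 0.179). At dys1 and pfk1 a noncoding gene begins nearer to the window, and the sign of both turned under some of the alternatives. The mean of the +N arrays at dys1, 2.20, was below the limit that chose the stretches. The hht2 and hhf2 pair kept its sign under every alternative that was run.

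The 5 largest increases in +N reached an adjusted p under 0.05 with the block. At chrI:4101164-4102514 H3K4Me3 was 2.79 and 3.12 in +N, against 2.04 and 2.07 in −N, both below the limit (difference 0.90, adjusted p = 0.0083). At eap1 (chrIII:747824-749729) it was 3.23 and 3.45 in +N, against 2.52 and 2.51 in −N (0.83, adjusted p = 0.0167). At bgs1, which encodes a catalytic subunit of β-glucan synthase (chrII:2356099-2359242), it was 3.69 and 3.84 in +N, against 3.02 and 3.02 in −N (0.75, adjusted p = 0.0354). At noc201, a ribosome biogenesis gene, it was 3.44 and 3.30 in +N, against 2.80 and 2.48 in −N (0.73, adjusted p = 0.0401). At ghs2 it was 2.36 and 2.99 in +N, against 1.58 and 2.21 in −N (0.79, adjusted p = 0.0247), where both −N arrays lay below the limit, and the difference turned to −0.12 for single probes. In all of these the replicates of a condition were closer to each other than to the other condition, except at ghs2, where slide and condition moved the value about equally. The stretches at chrI:4101164-4102514 and ghs2 were members only through the +N arrays, so the choice itself favoured an increase there.

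Differences in H3 within the stretches were smaller, and none passed limma's test with or without the block. The largest increases in +N without overlap of the arrays were 0.48 ± 0.21 (SE) at rpl2301, a ribosomal protein gene, with −0.22 and −0.20 in +N, against −0.98 and −0.40 in −N, 0.43 at tef3 and 0.40 at tfg1, the gene of a TFIIF subunit. The largest decreases were −0.51 ± 0.23 at fhn1, −0.49 at SPBC29A3.21 and −0.43 at nde1, an external NADH dehydrogenase gene (adjusted p = 0.9996 for each of the 6 without the block).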

How the data were processed

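Chromatin of 8 samples was measured by ChIP on chip, with antibodies to H3 and to H3K4Me3, on 2-colour Agilent arrays, 2 for each of the 4 groups. Per the labels, ChIP DNA was amplified with T7 RNA polymerase, which can compress ratios, and labelled with Alexa 647 (red), and input DNA with Alexa 555 (green). The authors deposited the scanner output, made with Agilent Feature Extraction 10.7.3.1, whose processed intensity values are background-subtracted, detrended and linearly dye-normalized but not scaled between arrays. Background-subtracted and raw median intensity values in the same deposited tables were used for alternatives. The deposited value table holds log2 of red over green processed signal, and it equals that ratio at all 341128 values. Which genome build the probes were designed on is not given in the sources used here.

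Log2 ratios of 42641 nuclear probes were taken, 5402 probes with an outlier flag on any array were left out, each array was centred on its median, and running means over 5 probes were made. Saturated and dim spots were kept. The number of arrays limits the precision. Differences were tested with limma 3.58.1 (R 4.3.3) over all windows for each antibody, two-sided. Benjamini-Hochberg adjustment was used, with calls at an adjusted p under 0.05. Means over members were tested with exact permutation tests (numpy 2.4.6). The scripts were checked on simulated data. The replicate number is also the slide, per the file headers, and each group had 1 place on both slides, so place and group cannot be told apart. Deviations of samples with the same number went together (r over windows 0.65 for H3K4Me3 and 0.21 for H3), and the number was used as a block.

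Genes, RefSeq upstream sequences and 5′ ends came from ASM294v3. Probe length and sequence composition matched that assembly on chromosomes II and III and up to 3700000 bp on chromosome I. Beyond that point on chromosome I the coordinates did not match, and 94 stretches were not set against genes. Stretches are named after the protein-coding gene with the nearest 5′ end. Named are the 8 highest and the 5 longest stretches, the 5 with the highest and the 5 with the lowest H3, the 5 largest increases and decreases in H3K4Me3 and the 3 largest in H3 among those without overlap of the arrays, and those next to the limit. Genes of the lists were named with them. The members, lists and tests were chosen with earlier results of these data known. Alternatives covered outlier, dim, saturated and multi-copy probes, centring, scaling, background correction, window size, the limit, the replicate block and leaving out each array.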

Additional observations from a re-analysis of the deposited data

How the results depend on the processing

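The call of no difference between +N and −N in H3K4Me3 depended on the replicate block, with which 36 member windows passed (1.93%, against 5.47% of all windows). Within the slides the mean difference (0.19 without the block) was 0.11 on slide 1 and 0.27 on slide 2. For H3 the block gave 0 member windows, against 0.14% of all windows. The mean H3K4Me3 difference was 0.42 with centring on the 10th percentile, 0.42 with normexp and loess, 0.36 with normexp, 0.32 for single probes, 0.12 with 9-probe windows and 0.01 with a common SD, and turned to −0.056 with quantile normalization and to −0.027 without dim probes. The mean H3 difference (−0.0027) has no settled sign, being 0.16 with centring on the 10th percentile, 0.036 with quantile normalization, 0.022 with a common SD, 0.027 with normexp and loess, 0.015 for single probes and 0.015 within slide 2, and −0.057 to 0.052 when 1 array was left out (0.0028 without H3K4Me3 +N replicate 2, 0.052 without H3 +N replicate 1 and 0.034 without H3 −N replicate 2). The H3 deficit of the members over all windows turned to 0.12 without dim probes and to 0.21 for single probes. The H3 excess of members at 5′ ends kept its sign under every alternative that gave a value. With 9-probe windows it was 0.04 at divergent pairs (main value 0.14) and 0.02 at other 5′ ends (main value 0.13). At divergent pairs it was 0.22 with outlier probes kept, and at other 5′ ends 0.68 for single probes and 0.22 in the highest 2%.

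Without 1 array, the stretches numbered 723 to 784, with a median length of 1630 to 1715 bp, 51.4 to 53.3% of them with a divergent pair, 99.2 to 99.5% with a 5′ end, and 54.6 to 61.3% of ribosomal protein genes in one, and 68.0 to 70.2% of the +N windows were also in the −N set. The H3 deficit was then −0.09 to −0.04, the H3 excess 0.11 to 0.16 at divergent pairs and 0.11 to 0.15 at other 5′ ends, and the H3K4Me3 difference 0.03 to 0.45. Between 69 and 179 members were above the H3 median and 566 to 970 below it, 0 passed for H3K4Me3, and 0 to 18 for H3. The 18 came without H3 +N replicate 2, when H3 at fhn1 (−0.84, adjusted p = 0.0468) and SPBC29A3.21 (−0.85, adjusted p = 0.0454) passed in limma.

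The number and length of stretches follow from the windows. There were 312 without dim probes, 468 with 9-probe windows, 1861 with single probes, 352 in the highest 2% and 1196 in the highest 10%, with median lengths of 3034, 3436, 60, 1562 and 1854 bp in that order, and of 1488 bp with outlier probes kept. Members above the H3 median numbered 1826 with centring on the 10th percentile, 297 for single probes, 60 in the highest 2% and 262 in the highest 10%, and members below it 0, 207, 291 and 1841, and 174 without dim probes. Shares over all windows are not given for these alternatives, so the counts show nothing particular to the members. The share of +N windows also in the −N set was 70.5% with normexp, 66.3% with normexp and loess, 67.0% without dim probes, 76.5% with 9-probe windows, 66.3% for single probes, 70.3% in the highest 2% and 77.9% in the highest 10%. The share of stretches with a 5′ end was 98.5% with normexp and loess, 98.4% in the highest 2%, 9.92% for single probes, and 100% without dim probes, with 9-probe windows or with a reach of 500 bp. The share with a divergent pair was 47.4% with outlier probes, 60.7% without dim probes, 77.1% with 9-probe windows, 0.06% for single probes and 48.1% in the highest 10%, and that of ribosomal protein genes was 42.0% without dim probes, 5.88% for single probes, 36.1% in the highest 2% and 72.3% in the highest 10%. The H3 excess at 5′ ends and these last 2 shares were chosen after the data were seen. Single stretches reversed at dys1 (0.10 with outlier probes, 0.29 for single probes), pfk1 (0.39 with normexp, 0.057 without dim probes, 0.086 for single probes), ghs2 (−0.12 for single probes) and, for H3, rpl2301 (−0.0125 for single probes). The cause was not tested.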
